A study of Mus musculus with 10 samples.

Results

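The transcription factors of epithelial to mesenchymal transition (EMT) were compared between mammary tumours with and without Ezh2. The set was defined by gene symbol and held 10 genes, namely Snai1, Snai2, Snai3, Zeb1, Zeb2, Twist1, Twist2, Prrx1, Prrx2 and Tcf4. Of these, 9 were measured on a probe set annotated to 1 gene, among 22180 genes tested. Zeb2 was carried only by 2 probe sets that the annotation assigns to several genes, so no value is given for it. Each of the 9 measured genes had 1 probe set.

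In EMT, epithelial cells loosen their junctions and take on features of mesenchymal cells. Factors of the Snail and Zeb families are zinc finger repressors that bind E-box sequences in the promoters of junction genes such as Cdh1, which encodes E-cadherin. Twist factors are basic helix-loop-helix (bHLH) proteins that bind DNA with E protein partners such as the product of Tcf4 (also called E2-2, and distinct from the Wnt effector Tcf7l2), and Prrx factors are homeodomain proteins of mesenchymal tissue. In the mammary gland, Snai2 is known from the basal layer, and Zeb, Twist and Prrx genes are also active in stromal fibroblasts, so that their RNA in a whole tumour is not specific to tumour cells.

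Total RNA of flash frozen whole tumours from female Tet-ON PyVmT mice on an FVB background was profiled on the Mouse Gene 2.0 ST array of Affymetrix. Each genotype, Ezh2-/- and Ezh2+/+, gave 5 tumours taken at tumour burden endpoint, with 1 array per tumour. In this model a reverse tetracycline transactivator is driven by the mouse mammary tumour virus promoter, and doxycycline then induces 1 transcript that encodes both the polyomavirus middle T oncogene (PyVmT) and Cre recombinase. Both genotypes therefore carry the oncogene, Cre and the doxycycline treatment, and the Ezh2-/- tumours in addition carried conditional Ezh2 alleles, which Cre deletes in the mammary epithelium. Stroma, vessels and immune cells keep Ezh2 and are part of the RNA. Endpoint was set by tumour burden, and the age at sampling is not given. The paper reports a significantly later tumour onset in Ezh2-deficient mice, so age and time under doxycycline may differ between genotypes. The part of such a difference in the results was not tested. Ezh2 encodes the methyltransferase of Polycomb repressive complex 2 (PRC2), and the comparison asks how the RNA of the EMT factors differed when it was lost.

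The values are log2 normalized signals, so that a difference of 1 is a 2-fold change, and arrays of the same genotype correlated at 0.965 to 0.982 and those of different genotypes at 0.930 to 0.962. The Ezh2 signal was 6.36 to 6.50 with the deletion and 6.98 to 7.69 without it, and the difference was −1.03 on the log2 scale (adjusted p = 0.000770 from limma, standard error 0.14). The sources used here do not say whether these probes fall in the deleted exons. Array medians were 4.35 to 4.46 in Ezh2-/- and 4.54 to 4.67 in Ezh2+/+ tumours, without overlap, and were left as deposited in the main comparison. Markers of skeletal muscle were high in Ezh2-/- replicate 1 (mean level 8.78) and replicate 5 (7.59) and lay between 4.47 and 5.28 in the other tumours, so results are also given without this pair. P-values reflect how far tumours of a genotype differ, and the sources used here do not state whether each came from a different mouse.

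Promoter sequences are shown first because the E-box is the letter pattern through which Snail and Zeb proteins are known to act. The pattern searched was CAGGTG on either strand (CACCTG on the other strand), in RefSeq windows (build GRCm38.p6) that run from 250 bases before to 50 after a transcription start. It was present in at least 1 window of 6098 of 27025 genes (22.6%). Among genes with a window, it was present in 15 of 19 epithelial genes repressed in EMT (78.9%) and in 2 of 16 mesenchymal genes raised in EMT (12.5%). Snai1 was the only 1 of the 6 factor genes with a window that held it. Snai2, Snai3, Zeb1, Tcf4 and Cdh1 had no window among those used, so no E-box or CG count is given for them. A match of letters describes the window and does not show that a factor bound there. The windows of Snai1 (chr2:167537945-167538244, plus strand) and of the epithelial genes Crb3 (chr17:57061951-57062250, plus strand), Cldn7 (chr11:69965171-69965470, plus strand) and Patj (chr4:98395576-98395875, plus strand) are printed 5′ to 3′, with each E-box in capitals.
Snai1: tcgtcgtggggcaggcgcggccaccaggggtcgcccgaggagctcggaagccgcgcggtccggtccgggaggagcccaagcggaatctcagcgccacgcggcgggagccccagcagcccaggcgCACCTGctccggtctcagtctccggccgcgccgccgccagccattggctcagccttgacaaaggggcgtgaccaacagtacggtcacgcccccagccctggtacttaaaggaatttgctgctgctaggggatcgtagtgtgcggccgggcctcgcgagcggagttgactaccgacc
Crb3: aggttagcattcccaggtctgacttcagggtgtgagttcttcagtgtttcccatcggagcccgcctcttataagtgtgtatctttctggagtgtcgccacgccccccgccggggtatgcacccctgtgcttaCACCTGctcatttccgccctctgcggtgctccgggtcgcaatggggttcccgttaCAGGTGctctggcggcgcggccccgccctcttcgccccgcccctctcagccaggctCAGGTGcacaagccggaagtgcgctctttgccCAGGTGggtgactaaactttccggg
Cldn7: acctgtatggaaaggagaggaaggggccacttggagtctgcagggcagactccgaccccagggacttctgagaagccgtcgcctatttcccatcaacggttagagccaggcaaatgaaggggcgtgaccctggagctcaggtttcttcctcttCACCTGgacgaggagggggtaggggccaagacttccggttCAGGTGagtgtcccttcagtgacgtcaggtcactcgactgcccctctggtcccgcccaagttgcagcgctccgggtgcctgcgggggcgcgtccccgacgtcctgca
Patj: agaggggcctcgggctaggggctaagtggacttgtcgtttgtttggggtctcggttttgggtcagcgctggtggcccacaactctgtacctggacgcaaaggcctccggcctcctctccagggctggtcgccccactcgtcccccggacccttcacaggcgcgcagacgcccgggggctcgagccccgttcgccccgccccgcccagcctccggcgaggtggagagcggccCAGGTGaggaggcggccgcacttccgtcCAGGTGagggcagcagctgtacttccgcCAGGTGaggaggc

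In the windows printed, Crb3, a polarity gene, held 4 E-boxes, Patj, whose product joins the same apical complex, held 3, the claudin gene Cldn7 held 2 and Snai1 held 1. Where a gene had several windows, 1 with the most E-boxes is shown. The other 2 windows of Patj and the other window of Cldn7 held 0, and the other window of Crb3, which overlaps the first, held 4. The factor genes with a window also differed in their content of CG dinucleotides, which are dense at many promoters bound by PRC2 in mammals. The windows of Snai1, Prrx2, Twist1 and Twist2 held 34, 28, 27 and 25, all above the upper quartile of 20 over all windows. The 4 windows of Zeb2 held 8 to 19, and the window of Prrx1 held 6 against a median of 7 over all windows.

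Of the 9 measured factors, Snai2 and Zeb1 were higher in Ezh2-/- tumours, 0 were lower and 7 did not pass (limma, adjusted p under 0.05). Snai2 rose 1.85-fold (95% confidence interval 1.44 to 2.38) and Zeb1 rose 1.501-fold (1.25 to 1.80). Over all genes, 7.29% were higher and 7.56% lower by the same test. These were also the 2 members with every Ezh2-/- tumour above every Ezh2+/+ tumour, which was so for 5.05% of all genes. The median log2 fold change of the 9 factors was 0.38, beside 0.026 for all genes, and 7 of them had a positive value. At an unadjusted p under 0.05, 5 of the 9 passed, all with a positive value, as did 18.0% of all genes in that direction.

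**Figure D1:**
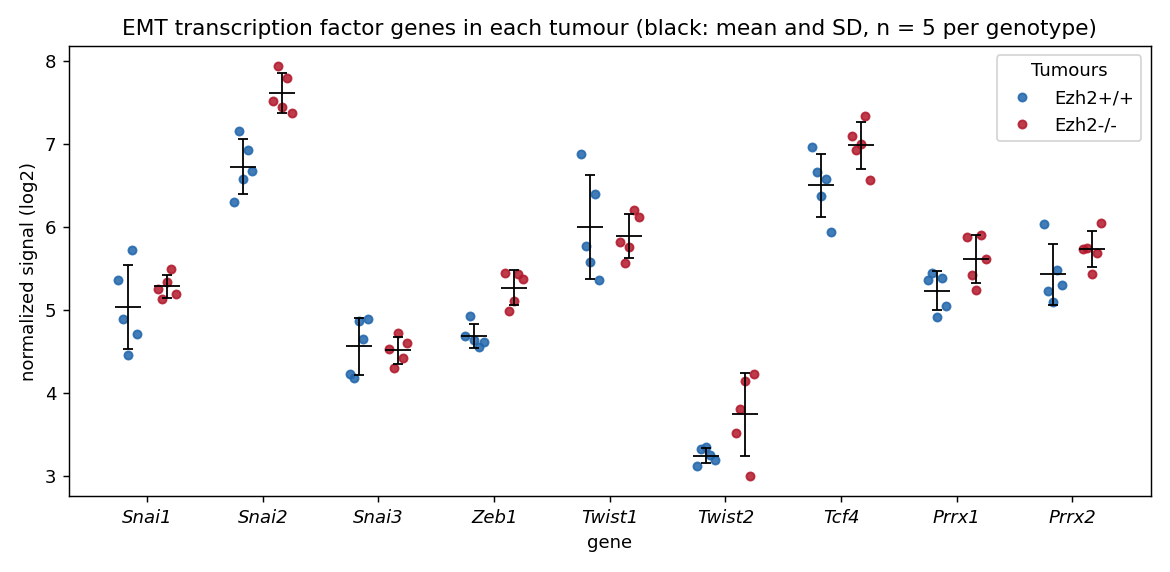
Log2 normalized signal of the 9 measured EMT transcription factor genes in each tumour. Points are tumours (blue Ezh2+/+, red Ezh2-/-), and black lines are the mean and SD of 5 tumours. The genotypes are apart for Snai2 and Zeb1 and overlap for the other 7 genes, and heights of different genes are not compared.

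Of the 3 Snail genes, Snai2 passed. It encodes Slug, a repressor of E-cadherin. Its log2 signal in Ezh2-/- replicates 1 to 5 was 7.52, 7.94, 7.44, 7.80 and 7.38, and in Ezh2+/+ replicates 1 to 5 it was 6.29, 7.16, 6.58, 6.93 and 6.68. All Ezh2-/- tumours lay above the highest Ezh2+/+ tumour, replicate 2. This is a log2 fold change of 0.89 (adjusted p = 0.00633, standard error 0.17). Without Ezh2-/- replicates 1 and 5 it was 1.00 (adjusted p = 0.00949).

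Snai1, the founding Snail gene of mammals, did not pass. It measured 5.25, 5.13, 5.34, 5.49 and 5.19 in the Ezh2-/- tumours and 5.36, 4.90, 4.46, 5.72 and 4.71 in the Ezh2+/+ tumours. The Ezh2+/+ tumours enclosed the Ezh2-/- values on both sides, and their SD was 0.51 against 0.14. Its log2 fold change was 0.25 (95% confidence interval −0.19 to 0.70, adjusted p = 0.409).

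Snai3 is the least studied of the family. It was dim, among the lowest 40% of genes, at 4.53, 4.30, 4.72, 4.42 and 4.598 in Ezh2-/- and 4.22, 4.18, 4.86, 4.65 and 4.88 in Ezh2+/+ tumours. The genotypes overlapped throughout. The log2 fold change was −0.048 (95% confidence interval −0.39 to 0.29, adjusted p = 0.856), and its sign turned after median centring, quantile normalization and cyclic loess, so no direction is given.

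Zeb1 encodes a zinc finger and homeodomain repressor that stands in mutual repression with the miR-200 family. Its signal was 5.45, 4.98, 5.11, 5.43 and 5.37 in Ezh2-/- tumours and 4.68, 4.93, 4.64, 4.55 and 4.61 in Ezh2+/+ tumours. The gene was rather dim, with a mean of 4.98 against a median of 5.09 over all genes. The cut for the dimmest 40% was 4.56, near most of the Ezh2+/+ values. The lowest Ezh2-/- tumour, replicate 2, and the highest Ezh2+/+ tumour, also replicate 2, were close to each other at 4.98 and 4.93. Zeb1 thus rose by 0.59 on the log2 scale (adjusted p = 0.0101, standard error 0.12). Without Ezh2-/- replicates 1 and 5 it was 0.49 (adjusted p = 0.0347).

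Of the 3 bHLH genes, 0 passed. Twist1, a regulator of mesoderm, was 5.82, 5.56, 5.76, 6.21 and 6.12 in Ezh2-/- tumours and 6.88, 5.77, 5.58, 6.40 and 5.36 in Ezh2+/+ tumours. Its highest and lowest values were both in Ezh2+/+ tumours, replicates 1 and 5. For Twist1 the log2 fold change was −0.10 (95% confidence interval −0.66 to 0.45, adjusted p = 0.806), and it was 0.070 after median centring and 0.12 without Ezh2+/+ replicate 1.

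Twist2, also named Dermo1 for its expression in dermis, was the dimmest member at 3.52, 3.81, 4.14, 3.00 and 4.22 in Ezh2-/- tumours and 3.12, 3.32, 3.34, 3.25 and 3.18 in Ezh2+/+ tumours. In 4 Ezh2-/- tumours it lay above all Ezh2+/+ tumours, and in Ezh2-/- replicate 4 it lay below all of them. The SD was 0.50 in Ezh2-/- tumours and 0.094 in Ezh2+/+ tumours. For Twist2 the log2 fold change was 0.50 (adjusted p = 0.104, standard error 0.20), and without Ezh2-/- replicate 4 it was 0.68 (adjusted p = 0.0220).

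Tcf4 was 7.09, 6.93, 6.99, 7.34 and 6.57 in Ezh2-/- tumours and 6.96, 6.66, 6.37, 6.58 and 5.94 in Ezh2+/+ tumours. In both genotypes replicate 5 was the lowest, and 3 Ezh2-/- tumours lay above all Ezh2+/+ tumours. Tcf4 had a log2 fold change of 0.48 (adjusted p = 0.0961, standard error 0.19). It passed without Ezh2-/- replicate 5 (0.59, adjusted p = 0.0447) and without Ezh2+/+ replicate 1 (0.60, adjusted p = 0.0475).

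Prrx1 and Prrx2 encode paired-related homeodomain factors of mesenchyme. Prrx1 was 5.88, 5.42, 5.24, 5.90 and 5.62 in Ezh2-/- tumours and 5.37, 5.45, 4.91, 5.39 and 5.05 in Ezh2+/+ tumours. Ezh2-/- replicates 1, 4 and 5 lay above all Ezh2+/+ tumours, and the other 2 lay within their range. Prrx1 had a log2 fold change of 0.38 (adjusted p = 0.112, standard error 0.16).

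Prrx2 was 5.74, 5.75, 5.44, 5.69 and 6.04 in Ezh2-/- tumours and 6.04, 5.23, 5.10, 5.48 and 5.29 in Ezh2+/+ tumours. Ezh2+/+ replicate 1 was nearly as high as the highest Ezh2-/- tumour, and 3 of the other Ezh2+/+ tumours were below all Ezh2-/- tumours. Prrx2 had a log2 fold change of 0.30 (adjusted p = 0.235, standard error 0.17), and without Ezh2+/+ replicate 1 it was 0.46 (adjusted p = 0.0437). Without that tumour the count of factors that passed was 4, with Prrx2 and Tcf4 beside Snai2 and Zeb1, while 6.76% of all genes were higher.

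The scaling of the arrays moved the count of factors that passed. Median centring moved the median over all genes (log2 fold change) from 0.026 to 0.199, and 5 factors were then higher, Snai2, Zeb1, Twist2, Tcf4 and Prrx1, while 23.5% of all genes were higher. After quantile normalization and after cyclic loess, 3 factors were higher, Snai2, Zeb1 and Twist2, with 6.03% and 4.93% of all genes higher. Of all genes called in either direction, 49.1% were higher in the deposited scaling, 84.9% after median centring, 60.3% after quantile normalization and 52.3% after cyclic loess. Relative to the median of all genes in the same scaling, Snai2 stood at 1.06 against 0.199 after median centring and at 0.73 against 0.031 after cyclic loess. Zeb1 stood at 0.76 and 0.64 in the same scalings. Snai2 and Zeb1 passed in all 22 alternatives run, with adjusted p up to 0.0293 and 0.0347. The other probe set rules among these left both fold changes as they were, since each gene has 1 probe set.

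**Figure D2:**
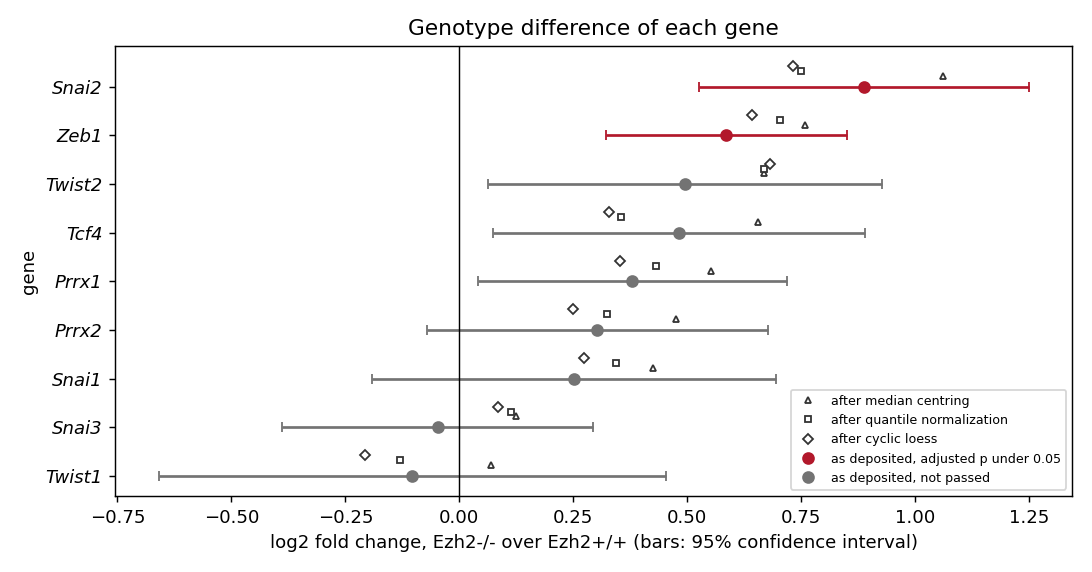
Log2 fold change of each factor gene, Ezh2-/- over Ezh2+/+, with its 95% confidence interval from limma (circles, red where adjusted p is under 0.05), and the value after 3 other scalings of the arrays (open symbols). Snai2 and Zeb1 lie above 0 in every scaling, while Snai3 and Twist1 lie on both sides of 0.

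Related factors were then compared directly, since a pass in one and not in another does not show that they differ. For each of 5 pairs, the difference of the log2 signals within a tumour was compared between genotypes by an exact two-sided permutation test over all regroupings of the tumours, whose smallest possible p is 0.00794. The genotype effect was larger for Snai2 than for Snai1 by 0.64 (95% confidence interval −0.036 to 1.31), with an exact p of 0.0476 and 0.119 after adjustment over the 5 pairs. It was larger for Snai2 than for Snai3 by 0.94 (0.27 to 1.597), with an exact p of 0.0238 and 0.119 after adjustment. Neither difference passed the adjustment, and each did so without Ezh2+/+ replicate 2, at 0.78 and 1.14 with an adjusted exact p of 0.0397. In the other 9 fits without 1 tumour, neither passed. After quantile normalization the differences were 0.41 and 0.64 (adjusted exact p = 0.529 and 0.198). After cyclic loess they were 0.46 and 0.65 (adjusted exact p = 0.437 and 0.139).

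The other pairs were wider or smaller. The effect on Twist1 minus that on Twist2 was −0.60 (95% confidence interval −1.57 to 0.37, exact p = 0.190, adjusted 0.317). That on Prrx1 minus that on Prrx2 was 0.076 (−0.37 to 0.52, exact p = 0.706, adjusted 0.706). That on Snai1 minus that on Snai3 was 0.30 (−0.46 to 1.06, exact p = 0.397, adjusted 0.496). The intervals are wide enough that none of these pairs can be called alike.

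**Figure D3:**
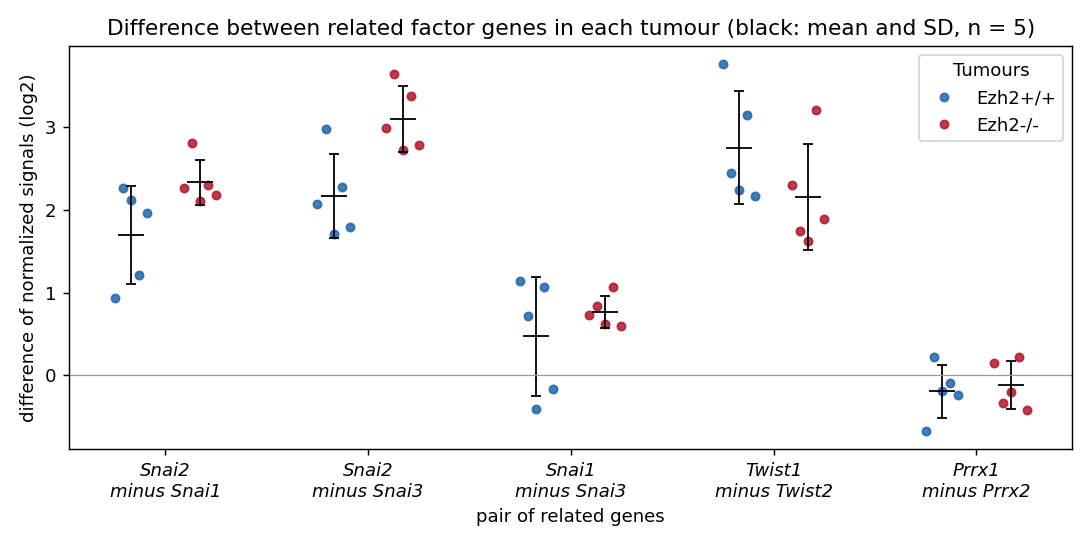
Difference of log2 normalized signals between 2 related factor genes in each tumour (points, blue Ezh2+/+ and red Ezh2-/-, with mean and SD of 5 tumours in black). Only the shift between genotypes is read, since signals of different probe sets are not on 1 scale. The genotypes overlap for all 5 pairs.

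Within a genotype, the factors did not move as a block. Deviations of each tumour from its genotype mean were correlated over the 10 tumours, as a description without a test. Snai1 followed Twist1 (r = 0.79), Twist1 followed Prrx2 (0.79) and Zeb1 followed Prrx1 (0.71). Snai2 and Zeb1, the genes that passed, had an r of 0.032, and Snai3 ran opposite to Tcf4 (−0.68).

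Among 10347 brighter genes, the closest to Prrx1 in these deviations was Fap (r = 0.991), which encodes fibroblast activation protein, and the next was Scara3 (0.957). The closest to Zeb1 were Rassf2 (0.921), Dpt (0.918) and Igf1 (0.906). Dpt, which encodes the matrix protein dermatopontin, and Fap are both among the fibroblast markers used here. The closest to Snai2 were Ecd (0.953), Kpna2 (0.947), which encodes an importin, and Zfp408 (0.944), none of them a marker in any list. For the other factors the closest genes were Nkain1 (Snai1, 0.956), Atp5c1 (Snai3, 0.946), Ift80 (Twist1, 0.970), Ilvbl (Twist2, 0.898), Srgap2 (Tcf4, 0.970) and Oaz2 (Prrx2, 0.980). With 10 points and many genes ranked, high values of r arise readily, and they are given as likeness only.

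Partners and regulators of the factors were read from lists. Of the 6 E protein partners and Id inhibitors, which form or block bHLH dimers, 0 passed, and their median log2 fold change was 0.26. The largest was Tcf3, which encodes E2A, at 0.51 (adjusted p = 0.0606), and Id3 was at 0.45 (adjusted p = 0.155). Without Ezh2+/+ replicate 4, 1 of the 6 passed. Of the 12 corepressors that Snail and Zeb proteins recruit, 2 were higher, with a median of 0.20, beside 7.29% of all genes higher. Ctbp1, which encodes the C-terminal binding protein recruited by Zeb1, was 8.92 to 9.20 in Ezh2-/- and 8.37 to 8.66 in Ezh2+/+ tumours, without overlap (log2 fold change 0.47, standard error 0.10, adjusted p = 0.0115). Ajuba, which encodes a LIM protein bound by Snail, was 5.9996 to 6.62 against 5.21 to 5.94 (0.65, standard error 0.16, adjusted p = 0.0211), and it did not pass without Ezh2-/- replicate 2 (adjusted p = 0.0537). Without Ezh2-/- replicate 5, 4 corepressor genes were higher.

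Snail proteins are short-lived, and kinases and ubiquitin ligases linked to their turnover were read as a list. The list does not separate genes that speed breakdown from genes that slow it. Of 9 such genes measured, 3 were higher and 0 lower, with a median of 0.35, beside 7.29% of all genes higher. Fbxl14, a ubiquitin ligase subunit for Snail and Twist proteins, was 6.50, 6.91, 7.03, 6.92 and 6.78 in Ezh2-/- tumours and 6.19, 6.41, 6.18, 6.44 and 5.82 in Ezh2+/+ tumours. Its genotypes did not overlap (log2 fold change 0.62, standard error 0.14, adjusted p = 0.0148), and it passed in all 22 alternatives. Fbxo45 rose by 0.47 (adjusted p = 0.0148) and the kinase gene Lats2 by 0.48 (adjusted p = 0.0362), the latter in 4 of 10 fits without 1 tumour. Protein levels were not measured.

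miRNAs of the miR-200 and miR-34 families are known to target Zeb and Snail mRNAs. Their mature sequences from RefSeq are shown with the seed, bases 2 to 8 from the 5′ end, in capitals, because the seed sets which mRNAs a miRNA pairs with. The first 3 share 1 seed, the next pair another, and the last pair yet another.
mmu-miR-200b-3p: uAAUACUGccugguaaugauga
mmu-miR-200c-3p: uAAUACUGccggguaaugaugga
mmu-miR-429-3p: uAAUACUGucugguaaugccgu
mmu-miR-200a-3p: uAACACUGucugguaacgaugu
mmu-miR-141-3p: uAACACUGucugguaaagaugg
mmu-miR-34a-5p: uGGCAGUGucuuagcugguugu
mmu-miR-34b-5p: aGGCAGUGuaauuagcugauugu

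The array carries probe sets annotated to the miRNA genes, and mature miRNAs were not measured apart from their precursors. Of 9 such genes measured, 1 was higher, 1 was lower and 7 did not pass, with a median of −0.032. The shares of all genes were 7.29% higher and 7.56% lower. Over the alternatives, 0 to 4 were higher and 0 to 2 lower. Mir34b was 5.04, 4.80, 5.21, 4.76 and 5.24 in Ezh2-/- tumours and 5.27, 5.45, 5.78, 5.71 and 6.004 in Ezh2+/+ tumours. All Ezh2-/- tumours were below all Ezh2+/+ tumours (log2 fold change −0.63, standard error 0.15, adjusted p = 0.0192), and the call was lost without Ezh2-/- replicate 4 (adjusted p = 0.0530). Mir34a, with the same seed, was at −0.20 (adjusted p = 0.384). Mir34c, on the same chromosome as Mir34b, was also measured and was among the 7 that did not pass.

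Of the genes that share the AAUACUG seed, Mir200b was 5.11, 4.43, 4.72, 4.74 and 4.86 in Ezh2-/- tumours and 3.598, 4.16, 4.53, 4.503 and 4.13 in Ezh2+/+ tumours, which overlapped. It rose by 0.59 on the log2 scale (adjusted p = 0.0458, standard error 0.18), and it passed in 3 of 10 fits without 1 tumour. Mir200c was 3.99, 3.45, 3.66, 4.15 and 3.95 in Ezh2-/- tumours and 4.31, 4.30, 4.04, 4.67 and 4.26 in Ezh2+/+ tumours, at −0.48 (adjusted p = 0.0543). With the AACACUG seed, Mir200a was at 0.33 (adjusted p = 0.166) and Mir141 at −0.032 (adjusted p = 0.907). All of the miR-200 genes named here were among the 40% dimmest genes of the array.

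Genes whose RNA is known to fall or rise in EMT were split by direction. Of 31 measured epithelial genes that are repressed in EMT, 2 were higher and 0 lower, and 29 did not pass, with a median of 0.079. By the same test, 7.29% of all genes were higher. E-cadherin, encoded by Cdh1, was 9.39, 9.93, 9.97, 9.77 and 8.93 in Ezh2-/- tumours and 9.18, 9.64, 9.69, 9.69 and 9.30 in Ezh2+/+ tumours. Its highest and lowest values were both in Ezh2-/- tumours, with a log2 fold change of 0.10 (adjusted p = 0.752, standard error 0.20).

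None of the epithelial genes whose E-boxes are printed above was lower. Crb3 was 6.37 to 7.22 in Ezh2-/- and 6.54 to 7.15 in Ezh2+/+ tumours (−0.040, adjusted p = 0.883, with the sign turned after median centring). Cldn7 was 7.67 to 8.17 against 7.53 to 7.81 (0.16, adjusted p = 0.379). Patj was 6.32, 7.05, 7.03, 6.83 and 6.06 in Ezh2-/- and 5.96, 6.12, 6.12, 6.04 and 5.40 in Ezh2+/+ tumours, and it rose by 0.73 (standard error 0.21, adjusted p = 0.0363). The other gene that passed was Spint1, which encodes a protease inhibitor of epithelia, at 0.52 (standard error 0.15, adjusted p = 0.0342). Patj passed in 3 and Spint1 in 2 of 10 fits without 1 tumour. The list had 0 higher without any 1 of Ezh2-/- replicates 2, 3 and 4 or Ezh2+/+ replicates 1, 4 and 5, 1 higher without Ezh2-/- replicate 1 or Ezh2+/+ replicate 2, and 5 higher without Ezh2-/- replicate 5.

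Of 27 measured mesenchymal genes that are raised in EMT, 14 were higher and 0 lower, and 13 did not pass, with a median of 0.94. Of all genes, 7.29% were higher. The 14 included the collagen gene Col3a1, which rose by 2.13 (standard error 0.31, adjusted p = 0.00140). Another collagen gene, Col1a1, rose by 1.90 (standard error 0.31, adjusted p = 0.00299). Mmp2, a gelatinase gene, was 8.71, 8.09, 8.02, 9.27 and 7.97 in Ezh2-/- tumours and 7.22, 7.28, 6.17, 6.32 and 6.44 in Ezh2+/+ tumours (1.73, standard error 0.29). Tgfb1i1, which encodes the focal adhesion protein Hic-5, rose by 0.95. Classical markers of EMT were less clear, with Vim (vimentin) at 0.59 (adjusted p = 0.0907), Fn1 (fibronectin) at 1.13 (adjusted p = 0.0760) and Cdh2 (N-cadherin) at 0.27 (adjusted p = 0.236). Without Ezh2-/- replicates 1 and 5, 12 mesenchymal genes and 10.6% of all genes were higher.

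**Figure D4:**
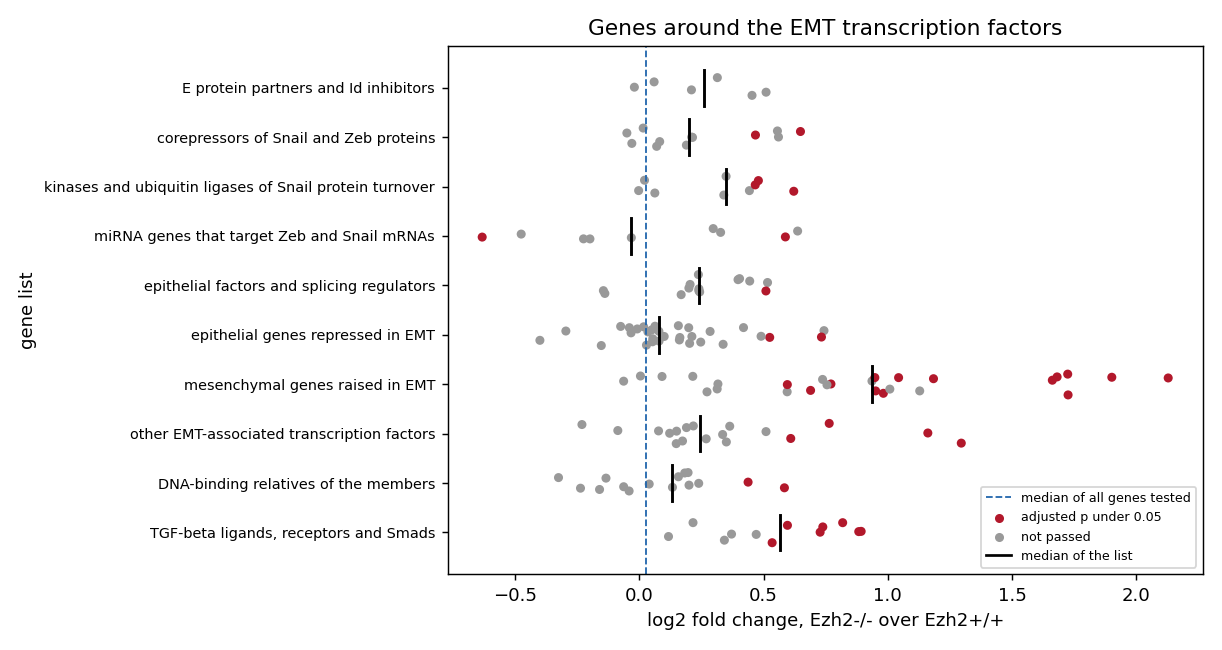
Log2 fold change of each measured gene in 10 lists around the EMT transcription factors, Ezh2-/- over Ezh2+/+. Each point is a gene (red where adjusted p from limma is under 0.05), black bars are list medians and the dashed line is the median of all genes at 0.026. The mesenchymal list has its median at 0.94, and the epithelial list at 0.079.

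Factors that hold the epithelial state and others linked to EMT were also read. Of 14 epithelial factors and splicing regulators, which oppose the EMT factors, 1 was higher and 0 lower, with a median of 0.24. The share of all genes that were higher was 7.29%. Gata3, the luminal master regulator, was 8.95, 9.17, 9.27, 9.18 and 8.67 in Ezh2-/- and 8.45, 8.58, 8.76, 8.52 and 8.36 in Ezh2+/+ tumours, with only Ezh2-/- replicate 5 within the Ezh2+/+ range (0.51, standard error 0.13, adjusted p = 0.0237). It did not pass without any 1 of Ezh2-/- replicates 2, 3 and 4 and Ezh2+/+ replicate 5 (adjusted p 0.0556 to 0.0627), and 3 genes of the list passed without Ezh2-/- replicate 5.

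Of 18 other transcription factors linked to EMT, 4 were higher and 0 lower, with a median of 0.24, beside 7.29% of all genes higher. Sox9, a partner of Snai2 in mammary stem cell assays, rose by 1.30 (standard error 0.31, adjusted p = 0.0182), and Runx1 rose by 1.16 (standard error 0.30, adjusted p = 0.0240). Ets1 rose by 0.61 and Foxc1, a forkhead gene, by 0.76. Runx1 lost its call without Ezh2-/- replicate 3 (adjusted p = 0.0523) and without Ezh2-/- replicate 4 (0.0638).

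Of 15 DNA-binding relatives of the factors, 2 were higher and 0 lower, with a median of 0.13, beside 7.29% of all genes higher. Scx, the bHLH gene of tendon, was 6.25 to 6.94 in Ezh2-/- and 5.84 to 6.20 in Ezh2+/+ tumours (0.58, standard error 0.14, adjusted p = 0.0173). Tcf24 rose by 0.44 (adjusted p = 0.0230) and did not pass without Ezh2-/- replicate 2 or without replicate 4 (adjusted p = 0.0573 each).

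TGF-beta is the best known inducer of the factors. Of 12 genes for its ligands, receptors and Smads, 7 were higher and 0 lower, with a median of 0.57, beside 7.29% of all genes higher. Tgfb3 was 9.93, 10.10, 10.10, 10.16 and 9.35 in Ezh2-/- tumours and 8.79, 9.38, 9.28, 9.14 and 8.60 in Ezh2+/+ tumours, where only Ezh2-/- replicate 5 overlapped (0.89, standard error 0.19, adjusted p = 0.0102). The receptor genes Tgfbr2 and Tgfbr1 rose by 0.74 and 0.53, and the signal transducer gene Smad3 by 0.82. The count was 2, 3 and 4 without Ezh2-/- replicates 4, 2 and 3 in that order, 3 without Ezh2+/+ replicate 5 and 5 to 8 without any other 1 tumour.

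Markers of other cells moved with genotype beside these results. Of 15 fibroblast markers, 11 were higher and 0 lower, with a median of 1.27, while 7.29% of all genes were higher. The mean fibroblast level was 6.41 to 7.53 in Ezh2-/- and 5.11 to 6.29 in Ezh2+/+ tumours, without overlap. Of 16 endothelial markers, 8 were higher, and their mean level was 5.97 to 6.44 against 5.54 to 5.92, also without overlap. Macrophage markers passed in 4 of 13 and lymphocyte markers in 3 of 9, and their mean levels overlapped. Markers of pericytes, adipocytes and skeletal muscle passed in 0 of 11, 0 of 8 and 0 of 11. Their median log2 fold changes were 0.25, 0.84 and 1.40, and 9, 8 and 11 of them had a positive value. Without Ezh2-/- replicate 4, 7 fibroblast, 4 endothelial and 2 macrophage markers were higher. Endothelial markers passed in 5 without Ezh2-/- replicate 1 or Ezh2+/+ replicate 5, lymphocyte markers in 1 without Ezh2+/+ replicate 4, and adipocyte markers in 3 and 4 without Ezh2-/- replicates 2 and 3. Of pericyte markers, 1 passed without any 1 of Ezh2-/- replicates 1 and 3 and Ezh2+/+ replicate 1, and 2 passed without Ezh2-/- replicate 5. Over all alternatives, 6 to 13 fibroblast, 3 to 13 endothelial and 1 to 9 macrophage markers were higher. The share of all genes that were higher also moved, for example 4.93% after cyclic loess and 23.5% after median centring. The part of these cells in the higher Snai2 and Zeb1, and in the higher mesenchymal genes, was not tested.

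In whole tumours, more cells of a type and more RNA per cell cannot be told apart. Markers of luminal epithelium passed in 0 of 8, at mean levels of 8.27 to 8.39 in Ezh2-/- and 8.29 to 8.55 in Ezh2+/+ tumours. Of 7 basal and myoepithelial markers, 1 was higher, the oxytocin receptor gene Oxtr at 0.89 (adjusted p = 0.0378), which passed in 3 of 10 fits without 1 tumour. The mean basal level was 5.61 to 5.96 in Ezh2-/- and 5.00 to 6.10 in Ezh2+/+ tumours, which overlapped. Within Ezh2-/- tumours, replicate 2 had the highest basal level and the highest Snai2, and replicate 5 the lowest of both. Ezh2+/+ replicates 2 and 4 had the highest basal levels of their genotype, 5.86 and 6.10, and also its highest Snai2. The part of basal cells in the Snai2 values was not tested. Ezh2-/- replicates 1 and 4 had the highest fibroblast levels, 7.43 and 7.53, and they also had the highest Zeb1 and Prrx1. The highest Snai2 was in Ezh2-/- replicate 2, with a fibroblast level of 6.52, and the next was in replicate 4. Among Ezh2+/+ tumours, replicate 2 had the highest Snai2 and the highest fibroblast level, 6.29. Ezh2+/+ replicate 4 went the other way, with the lowest fibroblast level, 5.11, and the next highest Snai2 of its genotype, 6.93. Its basal level of 6.10 was above that of every Ezh2-/- tumour, while its Snai2 was below that of every Ezh2-/- tumour.

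**Figure D5:**
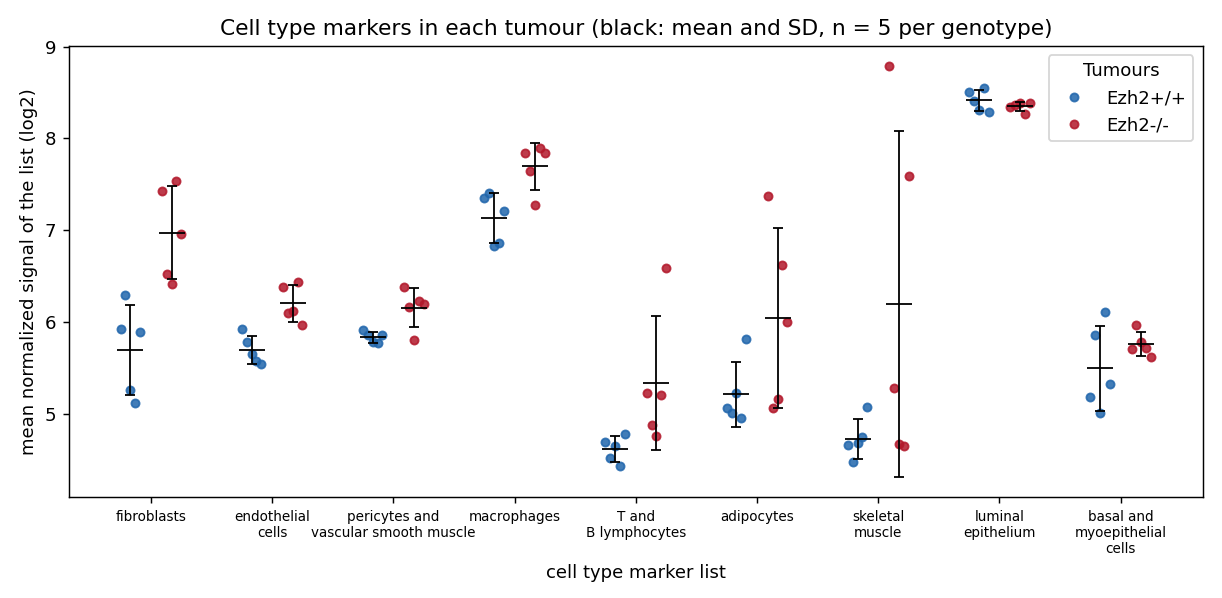
Mean log2 normalized signal of 9 lists of cell type markers in each tumour (points, blue Ezh2+/+ and red Ezh2-/-, with mean and SD of 5 tumours in black). Fibroblast and endothelial markers do not overlap between genotypes, luminal markers overlap, and skeletal muscle markers are high in 2 Ezh2-/- tumours.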

How the data were processed

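Normalized gene-level values were produced by the authors with Expression Console (Affymetrix), and they compared genotypes in Transcriptome Analysis Console. The deposited values, which range from 0.595 to 13.2, were read as log2, since the log base and the algorithm are not given in the sources used here. Of 41345 probe sets, 23521 carried 1 gene symbol, 1820 carried several and 16004 were not listed in the annotation used. Each of 22180 genes was represented by its brightest probe set (mean of the 10 arrays), with no filter on dim genes.

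Genotypes were compared with limma (version 3.58.1, R 4.3.3, default prior), two-sided, with Benjamini-Hochberg adjustment over all genes and a threshold of 0.05. The difference between Zeb1 and Zeb2, planned as a further pair, could not be run because Zeb2 had no probe set of its own. Intervals are 95% confidence intervals, and the number of arrays limits their precision. The fit and the permutation test were tested on simulated data.

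The members and lists were chosen with earlier results of these data known. Named genes were all members, up to 4 genes of each list with the smallest p among those that passed (where fewer than 2 passed, the smallest p up to 2 in all), Ezh2, the 3 genes that followed each member most closely (some of which are printed) and genes of printed promoter windows. Muc1, Mir205, Mir200a, Mir200c, Mir34a, Mir141, Vim, Fn1 and Cdh2 were named beside the rule, after their values were seen. Promoter windows and miRNAs are from RefSeq tables of GRCm38.p6. Alternatives were another prior, array weights, other scalings, other probe set rules, no dim genes, the methods' own test, the replicate block and leaving out tumours. Leaving out Ezh2-/- replicates 1 and 5 together was chosen after seeing the data.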

Additional observations from a re-analysis of the deposited data

Results flagged for a closer look

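In 166 groups of 5 tumours, those of the members, the named list genes and the marker levels in each genotype, 3 held a tumour far from the others by Dixon's criterion, which by chance marks about 1 in 20 groups. Patj was 5.40 in Ezh2+/+ replicate 5, against 5.96 in the nearest Ezh2+/+ tumour. Tgfb3 was 9.35 in Ezh2-/- replicate 5, against 9.93 in the nearest Ezh2-/- tumour. The mean level of the T and B lymphocyte markers was 6.58 in Ezh2-/- replicate 5, against 5.23 in the nearest. None of the 9 factors had such a tumour in either genotype.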

How the results depend on the processing

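Snai2 and Zeb1 kept their calls under all 22 alternatives, at log2 fold changes of 0.73 to 1.06 and 0.49 to 0.76, and Ezh2 kept its call at −1.19 to −0.86. After median centring, 5 factors and 23.5% of all genes were higher, and leaving out 1 tumour gave 2 to 4 factors. The count of 4 came without Ezh2+/+ replicate 1, where 6.76% of all genes were higher. The log2 fold change of Snai3 was 0.11 after quantile normalization, 0.13 after median centring, 0.086 after cyclic loess and −0.14 to 0.033 without 1 tumour. That of Twist1 was 0.070 after median centring and −0.26 to 0.12 without 1 tumour. Crb3 was at 0.13 after median centring and up to 0.070 without 1 tumour, and Mir141 at 0.018 after quantile normalization, 0.14 after median centring and −0.17 to 0.066 without 1 tumour. Leaving out the 40% dimmest genes gives no value for Snai3 and Twist2, nor for the miRNA genes Mir200a, Mir200b, Mir200c, Mir141, Mir205 and Mir34a.

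Of epithelial genes repressed in EMT, 0 were higher by the methods' own test after adjustment, 1 after quantile normalization and 5 after median centring. The count was 0 after cyclic loess and 5 without Ezh2-/- replicates 1 and 5. Without 1 tumour, 0 to 5 were higher and 0 to 1 lower. Of all genes, 6.03% were higher after quantile normalization, 23.5% after median centring and 4.93% after cyclic loess. Without Ezh2-/- replicates 1 and 5 that share was 10.6%. Mesenchymal genes raised in EMT were higher in 10 to 20 under all alternatives. Between related factors, the difference of effects without 1 tumour was 0.44 to 0.78 for Snai2 minus Snai1, 0.80 to 1.14 for Snai2 minus Snai3, and −0.043 to 0.18 for Prrx1 minus Prrx2, with −0.0078 without Ezh2-/- replicate 4. Over all alternatives, the genes higher numbered 0 to 3 for E protein partners, 1 to 4 for corepressors, 1 to 5 for protein turnover, 0 to 4 for epithelial factors, 2 to 9 for other EMT factors, 0 to 5 for DNA-binding relatives and 2 to 8 for TGF-beta genes. The causes of these shifts were not tested.

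Equal replicate numbers did not mark shared tumours or batches in the labels. Deviations of tumours with the same number correlated at −0.042 to 0.34, not all above 0.1, and those with different numbers at −0.30 to 0.18. The highest value, 0.34, was between the tumours numbered 5. With the replicate block, 3 factors (Tcf4 passed at adjusted p = 0.0283), 4 epithelial genes, 18 mesenchymal genes and 11.5% of all genes were higher, and Snai2 and Zeb1 kept their calls. The block test of the 5 pairs cannot go below an exact p of 0.0625 and gave adjusted values of 0.208 to 0.750.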

Other observations

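Muc1, which encodes an epithelial mucin and whose RefSeq window holds 2 of the E-boxes searched, was 8.78, 8.79, 8.95, 8.996 and 8.33 in Ezh2-/- tumours and 8.26, 7.87, 8.92, 7.62 and 7.47 in Ezh2+/+ tumours. Only Ezh2+/+ replicate 3 reached the level of most Ezh2-/- tumours, and the difference did not pass (log2 fold change 0.74, adjusted p = 0.0558 from limma). Mir205, whose mature miRNA is known to target Zeb mRNAs, was 4.51, 3.69, 4.12, 4.62 and 4.92 in Ezh2-/- and 3.51, 4.10, 3.27, 3.83 and 3.98 in Ezh2+/+ tumours. The genotypes overlapped, and the difference did not pass either (log2 fold change 0.64, adjusted p = 0.0722 from limma).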
